A study of Mus musculus with 6 samples.

Results

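Glucocorticoid response genes are transcripts that the glucocorticoid receptor raises when the adrenal stress hormone reaches a cell. The set described here holds the receptor gene Nr3c1 and 6 classical induced targets, Tsc22d3, Fkbp5, Per1, Klf9, Sgk1 and Ddit4. Their probes were found by gene symbol in the array annotation, which gave 11 of 45281 probes, for 7 of 19057 named genes. Of these, 9 were detected on enough arrays to be tested, among 14651 tested probes in all, and each of the 7 genes had at least 1 tested probe.

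The RNA came from thymus lymphocytes, freed by mechanical means, of C57/bl6-129sv mice that were 8 to 12 weeks old. The knockout group was 3 CD4-Cre/Kap1flox mice (KAP1 KO), which lose KAP1, the corepressor encoded by Trim28, in the T lineage. The control group was 3 wt/Kap1flox littermates (WT), so the floxed allele was present in both groups. CD4-Cre acts in thymocytes from the stage that carries both CD4 and CD8 and in the T cells that follow. No sort is named, and neither the sex of the mice, the hour of collection nor a hormone measurement is given in the sources used here. The arrays are called knockout replicates 1 to 3 and control replicates 4 to 6. Each is labelled as a sample of its own. That each is a different mouse is read from the 3 mice named per group, so the spread within a group is taken as a spread between animals.

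In a cell without hormone the receptor waits in the cytoplasm, held by HSP90 and its partner proteins. Bound to hormone, it moves to the nucleus and binds DNA as a pair, most strongly at an inverted repeat of AGAACA with 3 letters between the arms. Thymocytes that carry both CD4 and CD8 are among the cells most readily killed by glucocorticoids, and a stressed animal loses thymus mass by this route. Several of the target genes also answer other signals. Ddit4 is induced by low oxygen, starvation and DNA damage, Per1 follows the daily clock, Tsc22d3 is a target of FOXO factors and Klf9 of thyroid hormone.

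Promoter windows of 300 bases, from 250 before to 50 after each annotated start, are shown for 3 of the targets, because Tsc22d3 and Ddit4 carried the largest spread between animals and Sgk1 held the complete receptor motif. They come from RefSeq on GRCm38.p6, whose table held 14 windows for the 6 induced targets; windows of Nr3c1 were not used here, and windows of a gene are numbered along the chromosome. They are written 5′ to 3′ on the gene's own strand in lower case, and capitals mark AGAACA or its reverse complement TGTTCT and, in Sgk1, the whole inverted repeat.
Sgk1, window 5, chr10:21993640-21993939, plus strand: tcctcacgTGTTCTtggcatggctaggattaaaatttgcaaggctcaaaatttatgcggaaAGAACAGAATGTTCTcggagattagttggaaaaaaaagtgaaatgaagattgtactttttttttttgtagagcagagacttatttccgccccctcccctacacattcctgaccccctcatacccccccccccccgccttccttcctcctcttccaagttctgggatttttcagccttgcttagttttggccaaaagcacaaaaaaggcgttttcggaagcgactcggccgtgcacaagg
Tsc22d3, window 3, chrX:140600473-140600772, minus strand: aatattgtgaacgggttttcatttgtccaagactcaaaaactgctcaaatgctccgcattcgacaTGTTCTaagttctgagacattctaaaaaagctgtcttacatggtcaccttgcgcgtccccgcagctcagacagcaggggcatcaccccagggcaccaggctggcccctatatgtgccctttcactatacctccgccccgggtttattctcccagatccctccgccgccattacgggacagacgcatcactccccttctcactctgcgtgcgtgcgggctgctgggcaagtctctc
Ddit4, chr10:59951721-59952020, minus strand: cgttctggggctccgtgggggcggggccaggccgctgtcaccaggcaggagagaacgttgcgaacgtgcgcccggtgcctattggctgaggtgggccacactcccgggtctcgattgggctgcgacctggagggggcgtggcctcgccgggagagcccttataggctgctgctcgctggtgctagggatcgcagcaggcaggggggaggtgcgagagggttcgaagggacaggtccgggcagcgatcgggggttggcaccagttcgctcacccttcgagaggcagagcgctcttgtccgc

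The letters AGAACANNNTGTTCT, which read the same on both strands, were found in 3 of 32851 promoter windows of the mouse table (0.00913%). The Sgk1 window shown was among them, with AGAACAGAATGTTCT beginning 189 bases before the start. It was the only window with this motif among the 14 windows of the set. The looser core GNACANNNTGTNC, which lies within the complete motif, was in 156 of all windows (0.475%) and in the same Sgk1 window. The single arm AGAACA, counted on either strand and including arms inside the longer motifs, was in 6233 of all windows (19.0%) and in 4 of the 14 windows of the set. Those 4 were windows 1, 4 and 5 of Sgk1 and window 3 of Tsc22d3, where TGTTCT begins 185 bases before the start. A match of letters is a description of this window and not a receptor site, and no match in the other windows says nothing about sites farther away.

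No glucocorticoid response gene was found to differ between knockout and control beyond the spread between animals. In limma's test with Benjamini-Hochberg adjustment over all tested probes, 0 of 9 probes passed an adjusted p of 0.05, against 4 of 14651 probes (0.0273%) in all. At an unadjusted p under 0.05 the count was again 0 of 9, against 518 probes (3.54%) in all. The smallest unadjusted p in the set was 0.220, and every adjusted p was 0.998. The log2 difference was above 0 for 6 probes and below 0 for 3, with a median of 0.09, while 48.9% of all tested probes were above 0 with a median of -0.01. The knockout and control values overlapped for each of the 9 probes, and 1120 of the 14651 tested probes (7.64%) had groups that did not overlap.

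The arrays differed in brightness before they were equalized. The mean signal ran from 427.1 to 678.5 on the knockout arrays and from 340.1 to 578.8 on the control arrays, and knockout replicate 1 was the brightest. Between 13973 and 15182 probes were detected per array. Trim28, the deleted gene, averaged 10.69 ± 0.40 on the log2 scale in knockout mice and 12.41 ± 0.17 in control mice (SD, n = 3 per group). All 3 knockout arrays lay below all 3 control arrays, with a log2 difference of -1.72 and an adjusted p of 0.230 in limma's test.

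Nr3c1 encodes the receptor itself and lies on chromosome 18. Its probe, ILMN_2740568, was close to background, with raw signals of 191.0, 122.1 and 143.8 on knockout replicates 1 to 3 and of 148.7, 142.6 and 119.7 on control replicates 4 to 6. It was detected on 2 of 3 knockout arrays and on 2 of 3 control arrays, the exceptions being knockout replicate 2 and control replicate 6. On the log2 normalized scale the 3 knockout values were 5.96, 5.15 and 5.78, and the 3 control values were 5.64, 5.57 and 5.41. The control values all lay inside the knockout range. The log2 difference was 0.09 ± 0.26 (SE, n = 3 per group), with a 95% interval from -0.49 to 0.67. The probe's low signal limits what can be said of the receptor's RNA.

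Tsc22d3, on the X chromosome, encodes GILZ, a leucine zipper protein that restrains NF-kB and AP-1 and is among the receptor's most direct targets in lymphocytes. Its probe ILMN_3150811 had raw signals of 11300, 1787 and 3089 on knockout replicates 1 to 3, against 2435, 3178 and 2635 on control replicates 4 to 6. After equalization the log2 signals were 13.02, 10.80 and 11.85 in the knockout and 10.95, 11.51 and 12.07 in the controls. The highest and the lowest of the 6 arrays were both knockouts, and the 3 controls lay between them. Knockout replicate 1 stood 4.66-fold above knockout replicate 2 and 1.94-fold above the next array, control replicate 6. The group means were 11.89 ± 1.11 and 11.51 ± 0.56 (SD, n = 3 each), a log2 difference of 0.38 ± 0.53 (SE) with a 95% interval from -0.82 to 1.58. Lymphocytes were profiled in bulk, so fewer cells of a type and less RNA per cell cannot be told apart in this or any later value.

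A second Tsc22d3 probe, ILMN_2701664, is annotated to another RefSeq transcript of the gene. It had log2 signals of 9.20, 7.12 and 8.10 in the knockout and 6.19, 7.60 and 8.21 in the controls. Here too knockout replicate 1 was highest, 1.99-fold above the next array, but the lowest array was control replicate 4. The knockout minus control difference was 0.81 ± 0.61 (SE, n = 3 per group), with a 95% interval from -0.58 to 2.20. This was the largest difference in the set and the one behind its smallest unadjusted p. The remaining Tsc22d3 probe, ILMN_2648224, was detected on no array, with raw signals from 102.2 to 137.6 in the knockout and from 107.2 to 120.0 in the controls, and was not tested.

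Ddit4, on chromosome 10, encodes REDD1, which holds back the growth kinase complex mTORC1 under stress. Its only probe, ILMN_2993109, had raw signals of 7839, 1431 and 2449 on knockout replicates 1 to 3, against 2070, 2042 and 1823 on control replicates 4 to 6. The log2 signals were 12.42, 10.46 and 11.53 in the knockout and 10.70, 10.85 and 11.53 in the controls. The picture was that of Tsc22d3: knockout replicate 1 was highest, knockout replicate 2 lowest, and every control lay between. Knockout replicate 1 stood 3.91-fold above knockout replicate 2 and 1.85-fold above the next array. The log2 difference was 0.44 ± 0.47 (SE, n = 3 per group), with a 95% interval from -0.62 to 1.51.

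Per1, on chromosome 11, encodes a repressor of the daily clock that glucocorticoids induce within hours. The probe ILMN_2813484 had log2 signals of 9.29, 8.57 and 8.83 in the knockout and 8.65, 8.74 and 9.19 in the controls. The probe ILMN_2813487 had 7.27, 6.50 and 7.07 in the knockout and 7.16, 6.72 and 7.11 in the controls. On both probes knockout replicate 1 was highest and knockout replicate 2 lowest, but the span between them was small, 1.65-fold and 1.71-fold. The log2 differences were 0.04 ± 0.26 and -0.05 ± 0.26 (SE, n = 3 per group). The remaining Per1 probe, ILMN_1249997, was detected on no array, with raw signals from 97.5 to 136.8 in the knockout and from 101.1 to 110.2 in the controls, and was not tested.

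Fkbp5, on chromosome 17, encodes FKBP51, a partner of HSP90 that lowers the receptor's affinity for hormone and so closes a feedback loop. Its probe ILMN_2718266 had log2 signals of 11.01, 10.33 and 10.57 in the knockout and 10.97, 11.16 and 10.36 in the controls. The highest array was control replicate 5, and control replicate 6, which was second highest for Tsc22d3 and Ddit4, was second lowest here. Knockout minus control came to -0.20 ± 0.28 on the log2 scale (SE, n = 3 per group), with a 95% interval from -0.84 to 0.45.

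Klf9, on chromosome 19, encodes a Krüppel-like transcription factor that the receptor induces in many cell types. Its probe ILMN_1254031 had log2 signals of 6.32, 5.80 and 6.02 in the knockout and 6.10, 5.87 and 6.50 in the controls, with control replicate 6 highest. The difference between the groups was -0.11 ± 0.25 on the log2 scale (SE, n = 3 per group), with a 95% interval from -0.68 to 0.46.

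Sgk1, on chromosome 10, encodes the serum- and glucocorticoid-regulated kinase. Its probe ILMN_1213954 had log2 signals of 9.63, 9.70 and 9.87 in the knockout and 9.25, 9.56 and 9.89 in the controls. The 3 knockout arrays lay close together and inside the control range. From lowest to highest array the span was 1.56-fold, the narrowest of the 9 tested probes. A promoter window of this gene holds the complete motif shown above, and whether the motif acts in these cells was not tested. The log2 difference was 0.16 ± 0.23 (SE, n = 3 per group), with a 95% interval from -0.36 to 0.69.

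**Figure D1:**
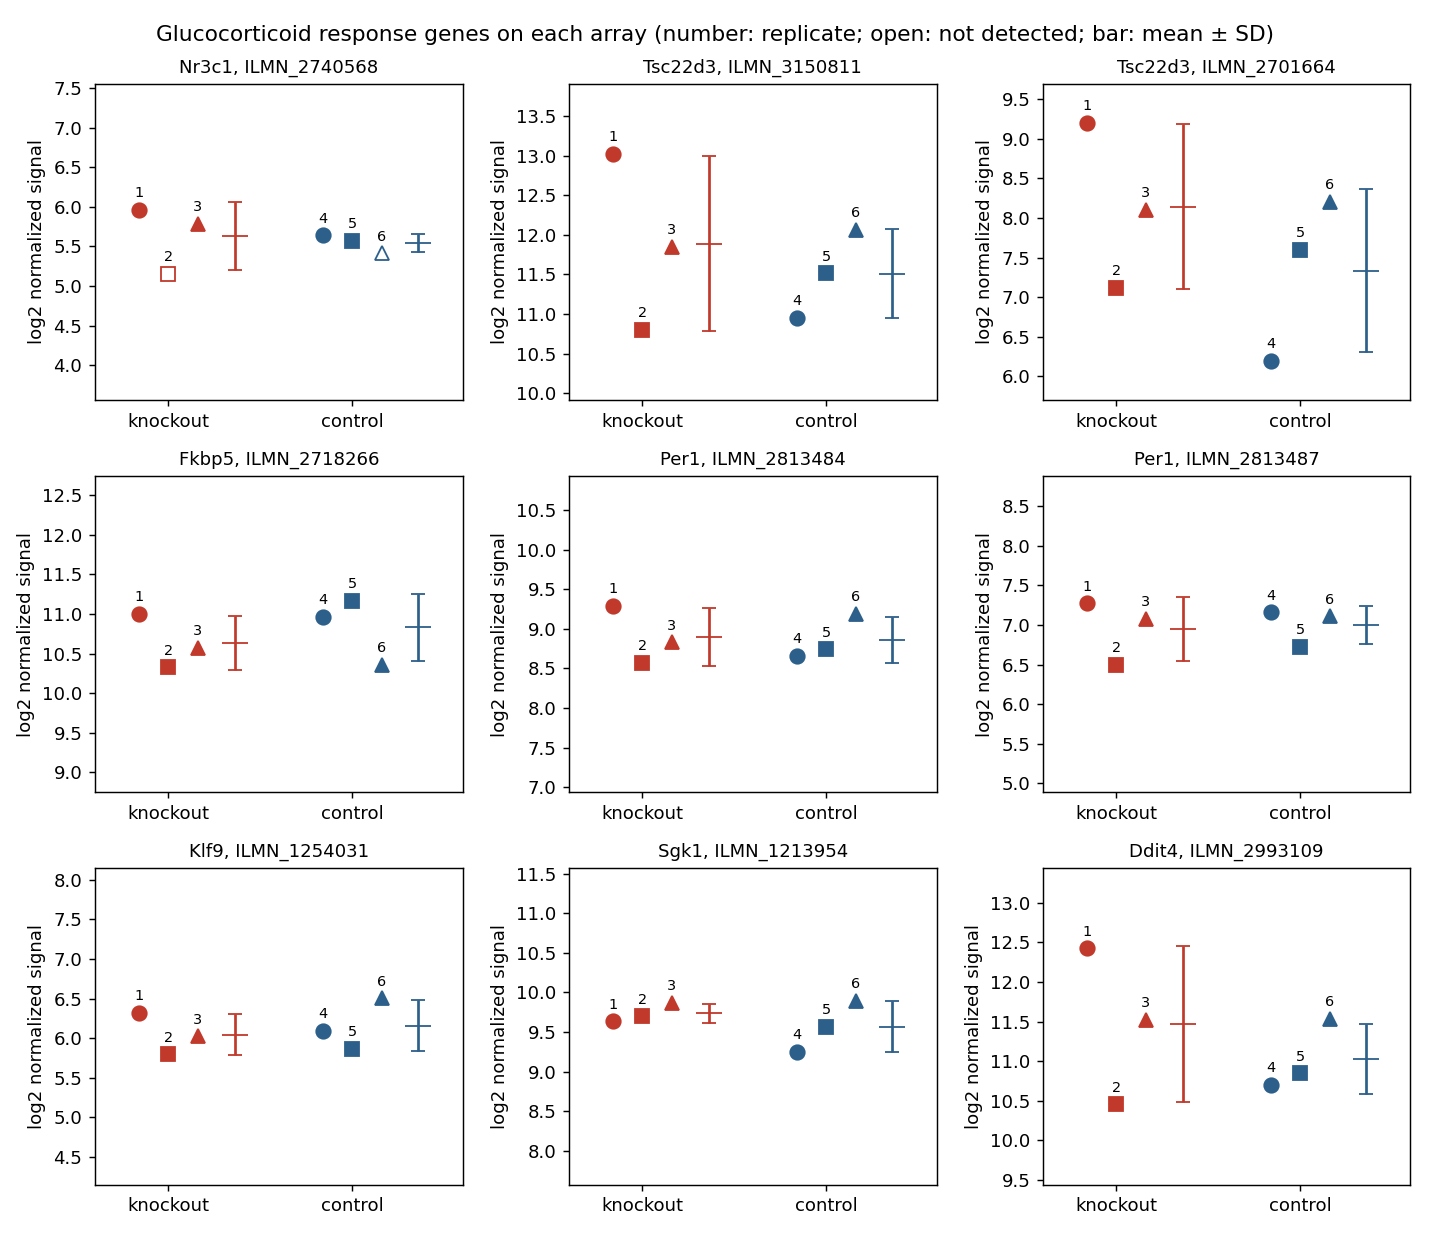
Log2 normalized signal of the 9 tested probes, 1 panel per probe, each with a vertical axis of the same length, for 3 knockout arrays (red, left) and 3 control arrays (blue, right). Numbers are replicates, open symbols mark arrays without detection, and bars give the mean ± SD. Knockout replicate 1 stands at the top for Tsc22d3 and Ddit4 with knockout replicate 2 near or at the bottom, and the groups overlap in every panel.

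**Figure D2:**
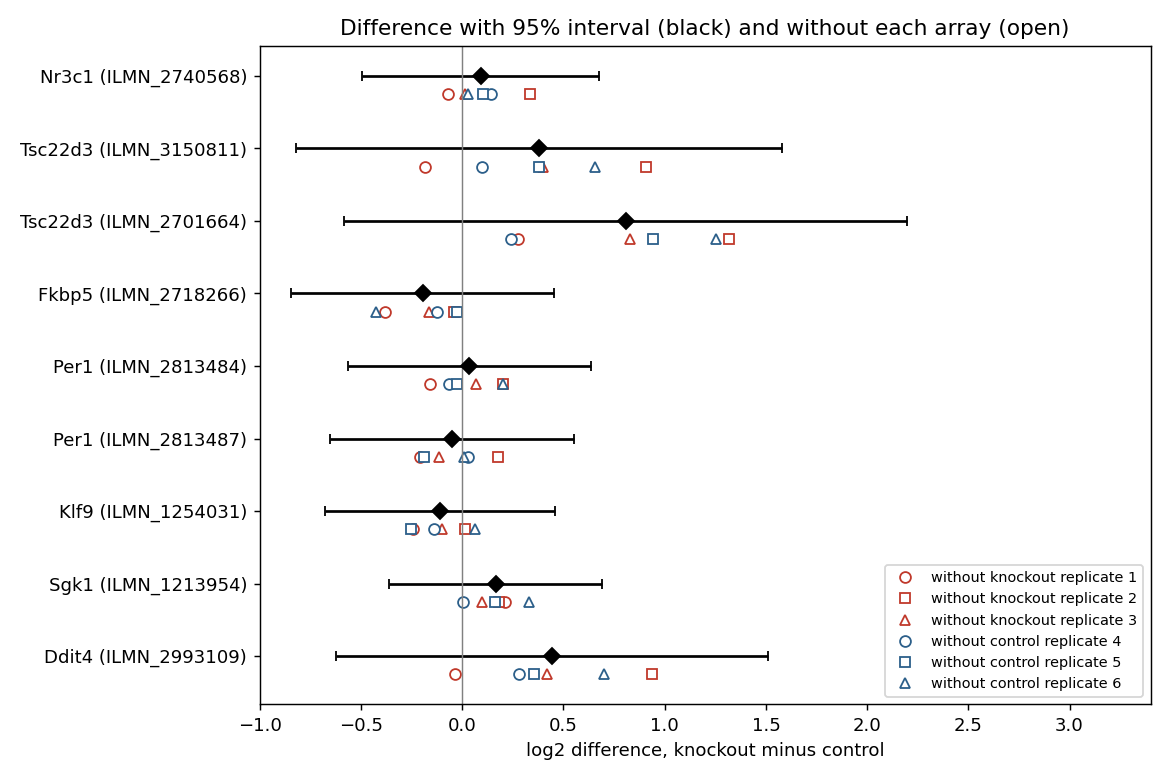
Log2 difference of knockout minus control for each tested probe (black diamond) with its 95% interval, and the same difference with 1 array left out (open symbols). All 9 intervals include 0, and leaving out knockout replicate 1 puts the first Tsc22d3 probe at -0.18 and Ddit4 at -0.04.

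The direction of the ILMN_3150811 and Ddit4 differences rested on knockout replicate 1, while ILMN_2701664 stayed above 0 whichever array was left out. Without knockout replicate 1 the log2 difference was -0.18 for ILMN_3150811, 0.27 for ILMN_2701664 and -0.04 for Ddit4. Without knockout replicate 2 it was 0.91, 1.32 and 0.94 in the same order. The second Tsc22d3 probe also depended on control replicate 4, without which its difference was 0.24. No probe of the set passed the threshold in any of these fits.

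A second header line of the signal table gives each array a number whose meaning is not stated. The numbers fall into 3 neighbouring pairs, each of 1 knockout and 1 control array. Within these pairs the knockout minus control difference of ILMN_3150811 was 2.07 for replicates 1 and 4, -0.72 for replicates 2 and 5 and -0.21 for replicates 3 and 6. For Ddit4 it was 1.73, -0.39 and -0.01 over the same pairs. ILMN_2701664 gave 3.00, -0.48 and -0.10. For all 3 probes 1 pair was thus strongly positive and the other 2 were below 0. With these pairs as a block, 0 of 9 probes passed the threshold.

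The spread of Tsc22d3 and Ddit4 between animals was wide compared with other probes. The pooled within-group SD on the log2 scale was 0.88 and 1.04 for the 2 Tsc22d3 probes and 0.76 for Ddit4, at the 97.5th, 98.7th and 95.9th percentile of all tested probes. The other 6 probes had SDs from 0.24 to 0.38, between the 31.0th and the 64.9th percentile. Because dim probes vary more, each probe was also set beside probes whose mean log2 signal lay within 0.5 of its own. By that measure 5 of 933 probes had a larger range over the 6 arrays than ILMN_3150811. The counts were 25 of 2273 for ILMN_2701664 and 13 of 1164 for Ddit4. A range of 4-fold or more was found for both Tsc22d3 probes and for 633 tested probes in all (4.32%).

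**Figure D3:**
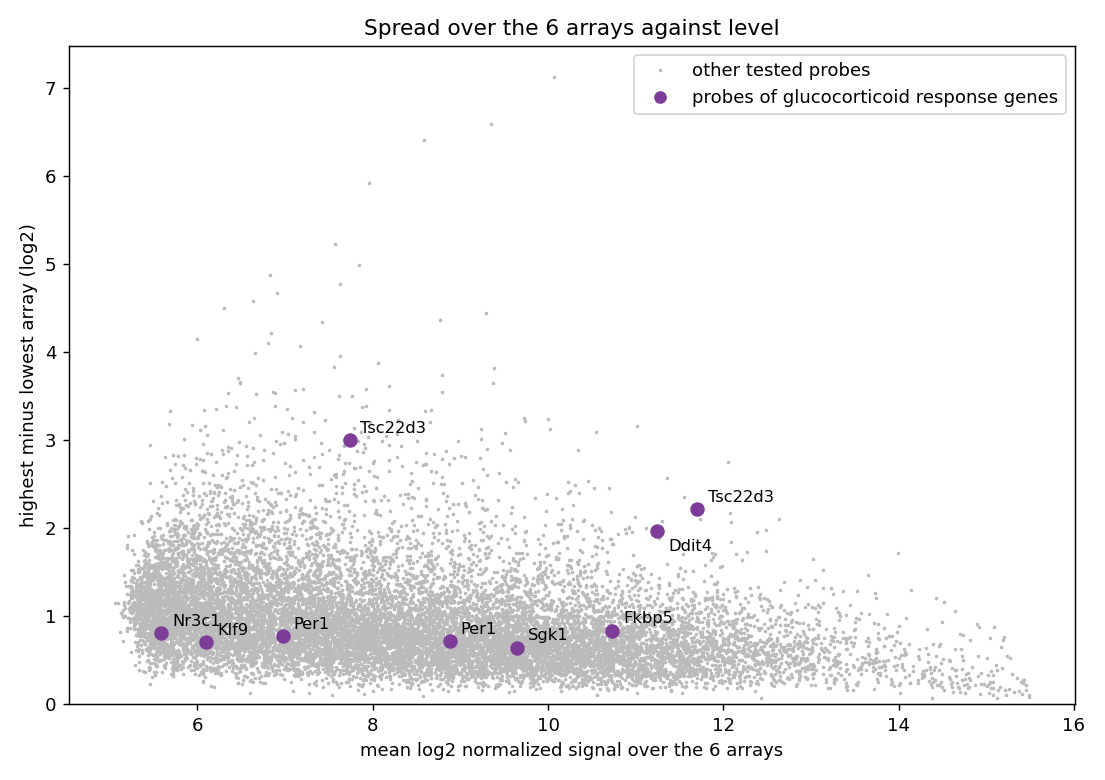
Range over the 6 arrays (highest minus lowest log2 signal, vertical) against the mean log2 signal (horizontal) for all 14651 tested probes in grey and the 9 probes of the glucocorticoid response genes in purple. Both Tsc22d3 probes and Ddit4 sit along the upper edge of the cloud at their brightness, and the other 6 probes lie within it.

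Some of the genes ranked the animals alike. ILMN_3150811 of Tsc22d3, Ddit4 and ILMN_2813484 of Per1 had 1 common order of the 6 arrays, from knockout replicate 1 through control replicate 6, knockout replicate 3, control replicate 5 and control replicate 4 down to knockout replicate 2. For Ddit4, control replicate 6 and knockout replicate 3 were almost equal. Of all tested probes, 61 had this order (0.416%). These include the 3 probes from which the order was read, so the share is no test of them. Knockout replicate 1 was the highest array for 6 of the 9 probes, against 15.3% of all tested probes. Tsc22d3 and Per1 enter there with both of their tested probes. With each gene taken by its brightest tested probe, it was highest for 4 of the 7 genes, against 16.2% of named genes. Knockout replicate 2 was the lowest for 7 of the 9 probes, against 27.7% of all tested probes. Fkbp5, Klf9 and Sgk1 did not have knockout replicate 1 at the top, so the 7 genes did not follow a common pattern.

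This order held in each of the 4 normalized versions tried, for the same 3 probes, although with median scaling knockout replicate 1 was highest for 5 of the 9 probes. The 4 were the quantile version used throughout, median scaling, no background correction and the authors' value table. The values of the authors' table nearly repeat those of the quantile version, so the 4 are not separate checks. On the deposited signal without equalization no probe of the set had this order. There, knockout replicate 1 was highest for 9 of the 9 probes but also for 69.6% of all tested probes. The lead of knockout replicate 1 over the next array on that scale was 3.56-fold for ILMN_3150811 and 3.20-fold for Ddit4.

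**Figure D4:**
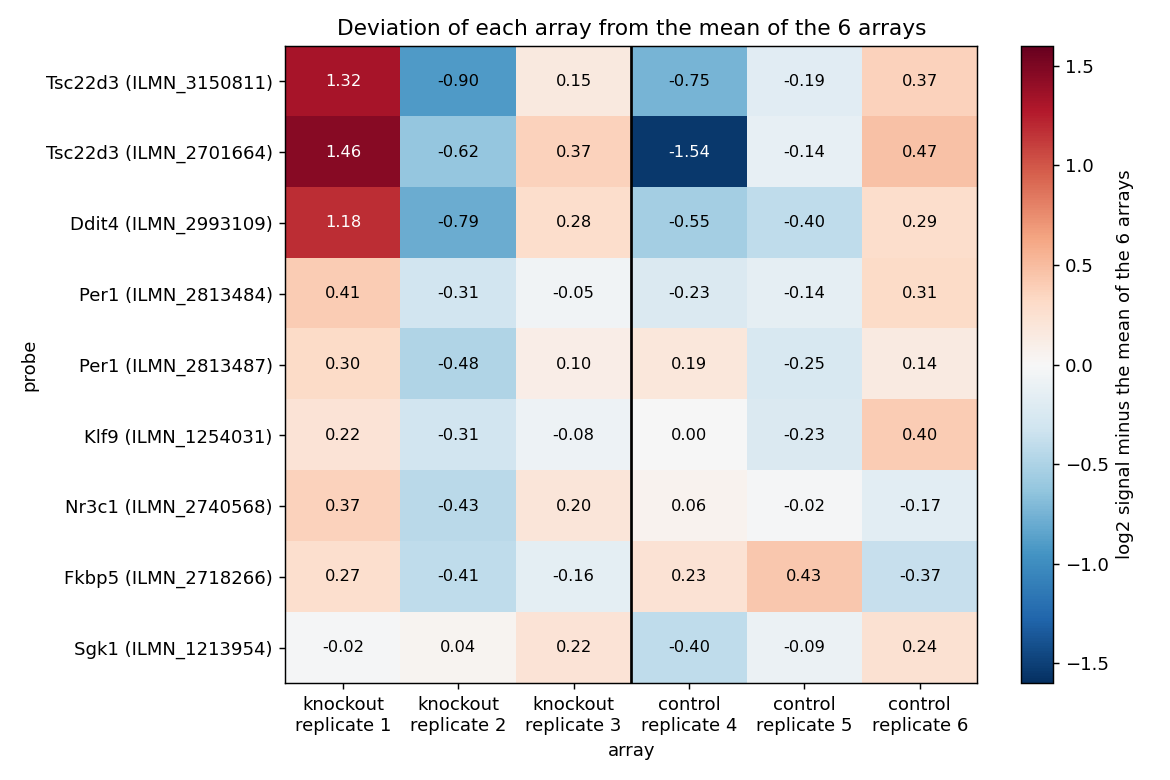
Log2 signal of each tested probe on each array minus that probe's mean over the 6 arrays, as a colour map with the values written in the cells, knockout arrays on the left and control arrays on the right. The rows of Tsc22d3 and Ddit4 are strongly positive for knockout replicate 1 and negative for knockout replicate 2, and the rows of Fkbp5, Klf9 and Sgk1 stay nearer to 0.

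Marker sums of several cell types also set these arrays apart, above all knockout replicate 2. Of 14 tested markers of double-positive thymocytes, 7 had a log2 difference above 0 and 7 below, with 0 past the threshold. Their summed normalized signal ran from 148613 to 196343 in the knockout and from 171179 to 185395 in the controls, and the lowest was knockout replicate 2. Of the defining markers Rag1 and Rag2 were detected on all 6 arrays, and Cd8a was detected on none. Macrophage and dendritic cell markers were above 0 for 12 of 12 tested genes with 0 past the threshold. Csf1r, 1 of the 12, was detected on 3 knockout arrays but 1 control array, so it was tested through the group where it was higher. The sum of the 12 ran from 13703 to 23278 in the knockout and from 9991 to 12872 in the controls, with knockout replicate 2 highest. Adgre1, Itgax, Itgam and Flt3 were detected on no array.

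Mature T cell markers were above 0 for 9 of 9 tested genes, with sums from 8635 to 9299 in the knockout and from 5709 to 7034 in the controls. B cell markers were above 0 for 3 of 3 tested genes, with sums from 893.5 to 1435 in the knockout and from 568.3 to 823.5 in the controls, while Ms4a1, Pax5, Cd22 and Cr2 were detected on no array. In both lists knockout replicate 2 was highest. Neutrophil markers were below 0 for 7 of 7 tested genes, with sums from 852.2 to 3077 in the knockout and from 1625 to 4325 in the controls. None of these markers passed the threshold. The part of these cell types in the low Tsc22d3 and Ddit4 signal of knockout replicate 2 was not tested. On knockout replicate 1, where Tsc22d3 and Ddit4 were high, the double-positive marker sum was 189205 and the macrophage and dendritic cell sum 15219, both above every control array. Knockout replicate 3, where Tsc22d3 and Ddit4 did not lead, was also above every control array on both, at 196343 and 13703. The highest control sum of the double-positive markers was close, at 185395, and single markers were mixed. On knockout replicate 1 Rag1 and Rag2 had log2 signals of 13.71 and 8.71, above every control array. Cd4 had 9.64 there, below every control array. The part of these cells in the high signal of knockout replicate 1 was not tested either.

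Red cell, stromal and fat cell markers were mostly dark. Of 10 red cell markers on the array 3 were tested, with sums from 429.2 to 1790 in the knockout and from 437.6 to 2119 in the controls. Hba-a1 and Hbb-bt were detected on all 6 arrays. The sum was highest on control replicate 6, followed by knockout replicate 1 (1790) and knockout replicate 3 (1557). Control replicate 4 (1116) and control replicate 5 came next, and knockout replicate 2 was lowest, as for Ddit4. The part of red cells in the Tsc22d3 and Ddit4 signal was not tested. Of 20 markers of thymic epithelium and stroma 4 were tested, with sums from 919.5 to 1447 in the knockout and from 946.1 to 1030 in the controls, and Epcam, Krt5, Krt14, Foxn1 and Aire were detected on no array. None of the 8 fat cell markers on the array was detected on any array.

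The proteins that hold the receptor ready were next examined as a list. Of 15 tested receptor chaperones, 2 had a log2 difference above 0 and 13 below, with a median of -0.19 and 0 past the threshold. The same measure over 8200 named genes had a median of -0.01, with 47.9% above 0. The 3 with the smallest p were the stress-inducible HSP90 gene Hsp90aa1 at -0.53, the p23 cochaperone gene Ptges3 at -0.44 and Dnaja1, an HSP40, at 0.43. Dnaja1 was close to background, detected on 2 knockout arrays and 1 control array. The low values of Hsp90aa1 and Ptges3 belonged to knockout replicate 3, with log2 signals of 8.60 and 8.04, against 9.85 and 9.23 on knockout replicate 1. Of 12 tested coregulators, 2 were above 0 and 10 below, with a median of -0.10 and 0 past the threshold, and Tada2a at -0.45, Prmt1 at -0.37 and Sin3a at -0.24 had the smallest p.

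Genes that make or clear corticosteroids were mostly not detected in these cells, and 4 of the 17 on the array were tested. Cyp11a1, the enzyme of the initial step of steroid synthesis, had a log2 difference of -0.34, and H6pd, which supplies reducing power to an activating enzyme, had 0.12. A probe annotated to Hsd3b2 had a log2 difference of -0.34, but the family has near-identical copies, so the copy measured is uncertain. That probe had log2 signals of 12.88, 10.81 and 12.07 in the knockout and 12.10, 12.28 and 12.40 in the controls. As with ILMN_3150811 of Tsc22d3 and with Ddit4, its highest array was knockout replicate 1 and its lowest knockout replicate 2. None of the 4 passed the threshold.

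Other genes induced by glucocorticoids showed no common direction. Of 26 tested, 14 were above 0 and 12 below, with a median of 0.02 and 0 past the threshold. Cdkn1c, a cyclin-dependent kinase inhibitor, had a log2 difference of -0.39, the acid-sensing receptor gene Gpr65 had 0.57 and Lcn2, which neutrophils carry in abundance, had -0.75. Knockout replicate 1 was the highest array for 6 of the 26, or 23.1%, against 16.2% of all named genes. Of 14 tested genes of thymocyte death, 8 were above 0 and 6 below, with a median of 0.05 and 0 past the threshold. The smallest p in that list belonged to the death promoters Bik at 0.60 and Bad at 0.26 and to the survival gene Bcl2 at 0.32. Bik was dim, detected on 3 knockout arrays but 2 control arrays. Its log2 signals were 6.11, 6.69 and 6.39 in the knockout and 6.39, 6.35 and 4.65 in the controls. Its difference thus rested on control replicate 6.

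Among genes that glucocorticoids repress, 4 of 21 on the array were tested, with 3 above 0 and 1 below. The chemokine genes Ccl4 and Ccl5 and the cytokine gene Tnf had log2 differences of 1.0, 0.76 and 0.54. All 3 were highest on knockout replicate 2, where Ccl4 had a log2 signal of 8.48, against 7.76 on knockout replicate 1 and 7.33 on knockout replicate 3, and 7.38, 6.62 and 6.54 on control replicates 4 to 6. None passed the threshold. These genes are also made by macrophages, whose marker sum was highest on the same array. The marker sums of mature T cells and of B cells were highest there too, and the part of these cell types was not tested.

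The neighbours of individual targets were examined in 4 further lists. For Per1, 7 of 11 tested clock genes were above 0 and 4 below, with a median of 0.02. Per2, its close relative, had a log2 difference of -0.57, the clock output gene Dbp had 0.42 and the clock activator Rora 0.38. For Tsc22d3, Klf9 and Sgk1, 5 of 14 tested relatives were above 0 and 9 below, with a median of -0.05. Klf2, which controls the exit of mature T cells from the thymus, had 0.67, Klf3 had -0.65 and Klf7 had -0.30. For Ddit4, 8 of 15 tested genes of the mTOR brake and of stresses that induce it were above 0 and 7 below, with a median of 0.03. The hypoxia target Vegfa had -0.66, the translation repressor gene Eif4ebp1 had 0.36 and the mTOR inhibitor gene Deptor had 0.47. Deptor was dim and detected on 3 knockout arrays but 1 control array, so it was tested through the group where it was higher.

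Genes that respond to heat shock or to tissue handling were the last of these lists. Of 10 tested, 8 were above 0 and 2 below, with a median of 0.10. Hspd1, the mitochondrial HSP60, had a log2 difference of -0.64, the immediate early gene Fos had 0.39 and the HSP110 gene Hsph1 had -0.88. The list's summed signal was 23883 for control replicate 6 and 22369 for knockout replicate 1. All other arrays lay between 16807 and 18635. Hsph1 was likewise highest there, at 11.91 and 11.33. These arrays also led for Tsc22d3, Ddit4 and ILMN_2813484 of Per1, but with knockout replicate 1 first. Single genes were mixed, and knockout replicate 1 was highest for 2 of the 10. The part of heat shock or tissue handling was not tested. Across the 4 lists, 0 genes passed the threshold. Vegfa, a target of the low-oxygen response that also induces Ddit4, had log2 signals of 6.42, 5.29 and 5.76 in the knockout and 6.04, 6.74 and 6.66 in the controls. Its highest array was control replicate 5 and its lowest knockout replicate 2. Hif1a, which encodes a subunit of the low-oxygen sensing factor and was named after its values were seen, had 7.75, 7.12 and 7.59 in the knockout and 7.44, 7.54 and 7.30 in the controls. Its highest array was knockout replicate 1 and its lowest knockout replicate 2, as for Ddit4. The part of low oxygen was not tested.

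**Figure D5:**
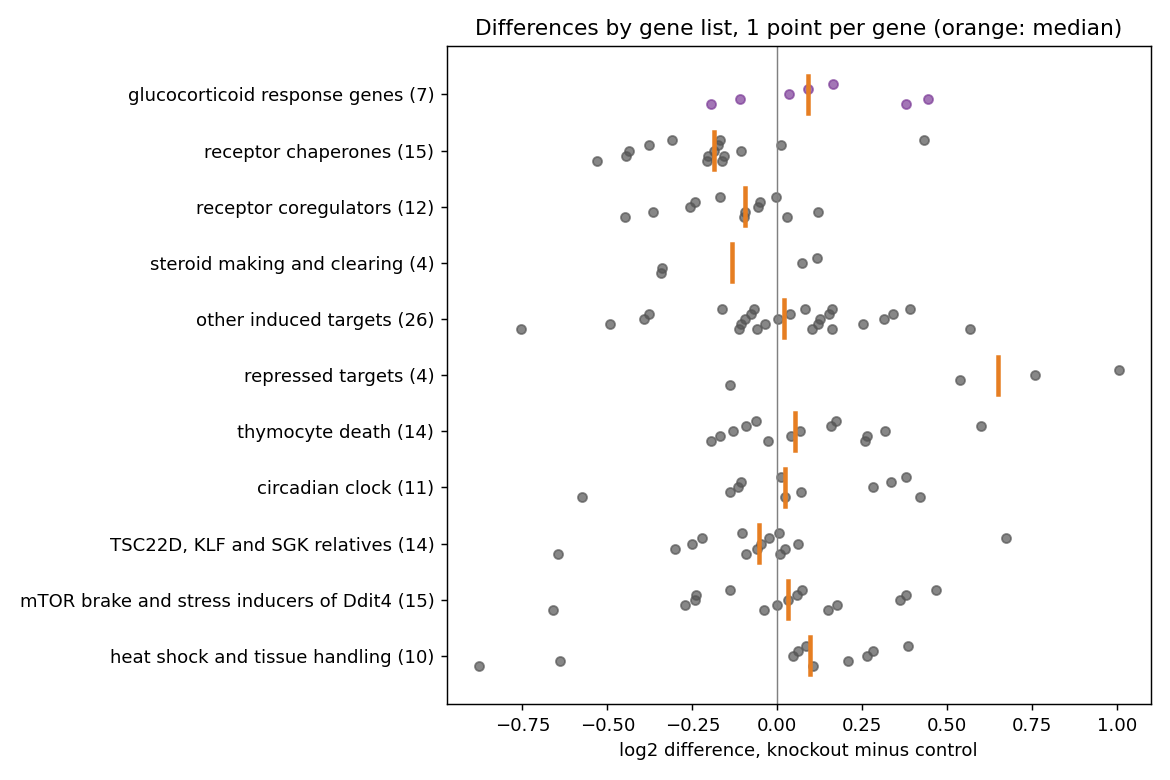
Log2 difference of knockout minus control for each tested gene (point) of the glucocorticoid response genes (purple) and 10 further lists (grey), with the number of genes in brackets and the median as an orange bar. The list medians lie between -0.19 and 0.10 except for the 4 repressed targets at 0.65, and no point passed the threshold.

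The named genes whose 6 array values were most like each member were found by Pearson's r over the 6 arrays, as a description of likeness among 8200 named genes. The closest to Tsc22d3 were Rnf19b (r = 0.98), a ubiquitin ligase gene, and Septin6 (r = 0.97). Rnf19b had log2 signals of 7.07, 5.68 and 6.29 in the knockout and 5.98, 6.14 and 6.61 in the controls. The closest to Ddit4 were Bcl2l1, which encodes the survival protein BCL-XL (r = 0.99), and Cyria (r = 0.98). Bcl2l1 had log2 signals of 10.06, 9.41 and 9.77 in the knockout and 9.53, 9.54 and 9.68 in the controls. Both genes were highest on knockout replicate 1 and lowest on knockout replicate 2, as the genes they resemble were. They were picked for this likeness, so the shared top and bottom arrays are not a separate finding.

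The closest to Per1 were Mau2 (r = 0.99) and Trdmt1 (r = 0.98), and the closest to Klf9 were Ap1b1 and Zfp598 (r = 0.99 each). Those closest to Nr3c1 were Fam117b and Dck (r = 0.99 each), and those closest to Fkbp5 were Rab3ip and Tent4a (r = 0.99 each). The genes most like Sgk1 were Msn, which encodes moesin, and Isca1 (r = 0.99 each). None of these genes was named for more than 1 member. Even the near-background Nr3c1 had genes at r = 0.99, in a search of 8200 named genes over 6 arrays.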

How the data were processed

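Illumina bead arrays measured 45281 probes in 6 thymus samples. The deposited table holds intensity values on a linear scale, not normalized between arrays, each with a detection p-value, per the file headers. BeadStudio 3.1.3 is named in the submitters' processing notes; no settings are given there. The authors' value table of the same arrays is also linear intensity, background-subtracted and equalized as judged from its values, and served as an alternative.

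Columns were matched to samples by the number in each name. With limma 3.58.1 in R 4.3.3, neqc corrected the background from the detection p-values, quantile-normalized the arrays and converted to log2 with an offset of 16. Differences are on that scale, which understates changes of dim probes. Probes detected (p under 0.01) on at least 3 of 6 arrays were tested with lmFit and eBayes, with no covariate and Benjamini-Hochberg adjustment over all 14651 (threshold 0.05; 4 residual and 4.51 prior degrees of freedom). The fit was tested on simulated data. Precision is limited by 3 arrays per group. For a list, each gene stands by the tested probe whose mean was highest. Summed signals are the normalized values without the 16, added over a list.

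Symbols came from the array annotation, updated by gene number, which matched 34807 probes. Of all probes 34885 had 1 symbol, 18 several and 10378 none. Named were every probe of the 7 genes, Trim28, the 3 genes of each list with the smallest p, and for each of the 7 genes the 2 most alike over the arrays. Defining markers of other cell types are named for whether they were detected. The genes and lists were chosen with earlier results of these data known. Of 344 list symbols 313 were on the array. Probe sequences were not used here. The alternatives were another scaling, background, offset, filter, prior, array weights, a header-number block, the authors' table, and leaving out each array.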

Additional observations from a re-analysis of the deposited data

How the results depend on the processing

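No glucocorticoid response gene passed the threshold under any of the 17 alternatives. Of the 152 differences recomputed for the 9 probes, 139 kept their direction and 13 reversed. Changing the filter, the prior or the header-number block leaves the differences as they are. The 139 thus include directions that could not have reversed. With array weights the second Per1 probe, ILMN_2813487, was at 0.22 and Klf9 at 0.13, while Tsc22d3 stood at 0.84 and 1.16 and Ddit4 at 0.92. Over the fits that left out 1 array each, the log2 difference ran from -0.070 to 0.33 for Nr3c1, from -0.18 to 0.91 for ILMN_3150811 of Tsc22d3, from -0.16 to 0.20 for ILMN_2813484 and from -0.21 to 0.18 for ILMN_2813487 of Per1, from -0.25 to 0.064 for Klf9 and from -0.036 to 0.94 for Ddit4. The median of the 9 probes ran from -0.16 without knockout replicate 1 to 0.20 without control replicate 6. Both Tsc22d3 probes and Ddit4 took their highest values without knockout replicate 2. Over all tested probes, 4 passed the threshold, against 2 with no background correction, 1 with no filter on detection and 2 with the pairs of neighbouring header numbers as a block, 5 with an offset of 1 or with a trend and robust prior, 6 with the authors' value table, and between 0 and 1 with 1 array left out, where fewer samples enter. The cause of the other shifts was not tested. No paired analysis by replicate number was possible because the labels give the groups no number in common. The block of header numbers rests on the signal table alone, and what those numbers mean is not stated. Dim signals limit Nr3c1 and Klf9 most.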

Other observations

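Few probes stood as far out on knockout replicate 1 as Tsc22d3 and Ddit4 did. There were 20 tested probes whose lead on that array over the next was at least that of Ddit4, 1.85-fold. Ddit4 and the 2 Tsc22d3 probes are among the 20 through the choice of this array and cut-off. The count was 119 on knockout replicate 2, 14 on knockout replicate 3, and 12, 4 and 28 on control replicates 4 to 6. The other named genes among the 20 were chosen after their values were seen. Igf2bp3, an RNA-binding protein of fetal blood cells, was among them with 2 probes. Its probe ILMN_1218913 had log2 signals of 9.82, 5.94 and 7.47 in the knockout and 8.76, 8.57 and 7.80 in the controls. The lowest array was again knockout replicate 2, but the order of the others was not that of Tsc22d3. Mfsd4a, a transporter gene, had 9.01, 4.90 and 6.11 in the knockout and 7.52, 7.16 and 6.10 in the controls, a range of 4.11 on the log2 scale. The lead of knockout replicate 1 was 4.04-fold for Etfbkmt and 3.08-fold for the Wnt receptor gene Fzd10.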
